A study of Mus musculus with 6 samples.

Results

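The laminin chain genes were followed across every library of the series. They were chosen by symbol, as the chains that build laminin-332, laminin-511, laminin-411 and laminin-111, together with Lama2 and Lamb2, and they are 9 of the 55291 genes listed in the count tables: Lama1, Lama2, Lama3, Lama4, Lama5, Lamb1, Lamb2, Lamb3 and Lamc1. All 9 passed the filter on low counts that edgeR applied before testing, Lama2 through the libraries in which it was not near 0. RNA-seq was performed on 6 libraries of sorted mammary gland cells, with 2 libraries of TEB-distal Gpr125+ cells (from the part of the gland that holds the terminal end buds), 2 of nipple-proximal Gpr125+ cells and 2 of cells labelled Gpr125-negative. All libraries came from mice of genotype Adgra3-lz/+ at 6 weeks of age, so the groups share the reporter allele, in which lacZ takes the place of exons of Adgra3 and a fusion of Gpr125 with β-galactosidase is made from its promoter. Cells bearing CD31, CD45 or Ter119 were gated out, cells with high CD49f (integrin α6, itself a laminin receptor) were kept, and the fluorescent β-galactosidase substrate FDG split them into positive and negative. Each library pooled glands of 5 mice, and the labels give no region for the Gpr125-negative libraries, which serve as the reference for both regions, so the comparisons with them share those libraries. Nothing in the labels says whether replicates came from separate sorts, so p-values measure the spread between these samples only.

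Total counts were 20134890 to 37296640 per library, and the level that 3 counts give was 0.0804 to 0.149 CPM (counts scaled to the library total, TMM-normalized for the levels below), which covers counting error only. The libraries labelled Gpr125-negative differed from each other more than the others did, with a correlation of log2 CPM across genes of 0.733, against 0.791 for TEB-distal and 0.933 for nipple-proximal libraries. Adgra3, the sorted gene, was at 35.7 and 18.6 CPM (replicate 1 first, as in every pair below) in the libraries labelled Gpr125-negative, 15.0 and 4.83 CPM for TEB-distal cells and 19.2 and 12.3 CPM for nipple-proximal cells, so its RNA did not differ in the direction of the labels and the groups are named below by their labels only. All 12 basal markers checked (keratin 14 and smooth muscle genes among them) were detected in every library, with a summed level of 3393 and 3554 CPM in the libraries labelled Gpr125-negative, 4017 and 23031 CPM for TEB-distal cells and 9449 and 14952 CPM for nipple-proximal cells. In spite of the CD31 gate, the 12 endothelial markers were all detected in both libraries labelled Gpr125-negative, with a summed level of 1394 and 851 CPM.

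Laminins are large secreted proteins of the basement membrane, each a trimer of an α, a β and a γ chain. The α chain carries the main binding sites for receptors on the cell. Laminin-332, which contains the α3 chain of Lama3 and the β3 chain of Lamb3, is made by basal epithelial cells and ties them through integrin α6β4 to hemidesmosomes. Laminin-511 and laminin-521, with the α5 chain of Lama5, lie under most adult epithelia. Laminin-411, with the α4 chain of Lama4, is typical of vessels, fat and nerve sheaths, laminin-211, with the α2 chain of Lama2, of muscle and Schwann cells, and laminin-111, with the α1 chain of Lama1, of embryonic and some glandular basement membranes. In the mammary duct the basement membrane lies beneath the basal, myoepithelial layer, which makes much of it.

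On GRCm38 (GENCODE M21) Lama1 lies at chr17:67697259-67822647, Lama2 at chr10:26980036-27619758, Lama4 at chr10:38965515-39110188 and Lama5 at chr2:180176373-180225859. The β chain genes lie at chr12:31265234-31329644 (Lamb1), chr9:108479736-108490530 (Lamb2) and chr1:193207699-193343878 (Lamb3), and the γ1 gene Lamc1 at chr1:153218922-153332786. Reads were counted without regard to strand. Lama2 shares 631 exon bases and Lama3 shares 197 exon bases with an antisense gene, whose reads cannot be told apart from theirs there. Long and short transcripts of Lama3 were counted together.

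The 250 bases before an annotated start (RefSeq, GRCm38.p6) are printed for 3 chains that span the range of levels seen here: Lamb3, which had the highest level in each group, Lama5, whose groups overlapped, and Lama2, which was lowest. They are written 5′ to 3′ along the gene's own strand, with capitals marking the GC box (GGGCGG on either strand).
Lamb3, chr1:193301744-193301993, plus strand: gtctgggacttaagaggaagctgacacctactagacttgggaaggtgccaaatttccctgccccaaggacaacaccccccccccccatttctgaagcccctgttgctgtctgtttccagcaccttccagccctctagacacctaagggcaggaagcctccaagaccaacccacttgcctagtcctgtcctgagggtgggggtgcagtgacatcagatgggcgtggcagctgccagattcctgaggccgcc
Lama5, chr2:180225860-180226109, minus strand: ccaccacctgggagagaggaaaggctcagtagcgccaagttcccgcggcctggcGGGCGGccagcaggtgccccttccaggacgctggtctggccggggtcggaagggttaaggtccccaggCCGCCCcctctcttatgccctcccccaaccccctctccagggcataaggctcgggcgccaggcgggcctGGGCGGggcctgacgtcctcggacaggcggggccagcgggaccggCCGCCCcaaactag
Lama2, chr10:27616943-27617192, minus strand: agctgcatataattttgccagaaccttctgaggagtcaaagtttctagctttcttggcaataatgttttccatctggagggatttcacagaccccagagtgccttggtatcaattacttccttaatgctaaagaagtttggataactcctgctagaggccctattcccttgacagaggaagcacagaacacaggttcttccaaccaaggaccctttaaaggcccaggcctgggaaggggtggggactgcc
The Lama5 window holds 4 GC boxes, has a GC content of 72.4% and 19 CpG dinucleotides, whereas the Lamb3 window printed has no GC box, 58.8% GC and 2 CpG, and the Lama2 window no GC box, 47.2% GC and no CpG. RefSeq gives Lamb3 a further start, whose window (chr1:193301993-193302242) has 61.2% GC, 3 CpG and no GC box. Over all 32851 windows of the same kind the median was 52.4% GC and 6 CpG, and 32.7% held a GC box. Neither the AP-1 motif TGANTCA (in 6.75% of all windows), nor TATAAA (12.4%), nor the CRE motif TGACGTCA (1.55%), each searched on both strands, was found in these 3 windows, which says only that those letters are absent from them. The Lamb1 window held 2 GC boxes and the Lamb2 window none, and windows of 5 of the 9 genes were read.

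Lamb3 and Lamc1 were the most abundant laminin transcripts of the cells labelled Gpr125-negative, and Lamb3, Lama3 and Lamc1 those of both Gpr125+ groups. Scaled to exon length, the level of Lamb3 was highest in each group, at a mean of 22.9 ± 18.4 CPM per kilobase (kb) in the libraries labelled Gpr125-negative, 51.3 ± 34.4 for TEB-distal cells and 55.0 ± 14.0 for nipple-proximal cells (SD, n = 2 each, as for all group means below). More genes lay below Lamb3 in the Gpr125+ groups (93.9% and 94.1% of the 16941 genes tested that had a length) than in the libraries labelled Gpr125-negative (87.0%). Lamc1 was next in the libraries labelled Gpr125-negative, at 21.0 ± 13.7 CPM per kb, and its range overlapped that of Lamb3. Lama3 took that place in both Gpr125+ groups.

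In the libraries labelled Gpr125-negative, Lama3 and Lama5 had nearly the same mean level, 8.46 ± 0.145 and 8.44 ± 3.47 CPM per kb, and the order went on with Lamb2, Lama4, Lamb1, Lama1 and Lama2 at 5.34, 3.37, 3.31, 1.76 and 0.655 CPM per kb. Neighbours in this order overlapped between libraries in all cases except Lamc1 above Lama3 and Lamb1 above Lama1. In TEB-distal cells Lama3 stood at 30.1 ± 9.59 and Lamc1 at 25.9 ± 7.17 CPM per kb, followed by Lamb2 at 14.5 ± 13.8 and Lama5 at 11.4 ± 2.56, and from Lamb3 down to Lama5 each chain overlapped with the next. Lama5 was separate from Lamb1, and below it Lamb1 at 6.95, Lama1 at 3.02, Lama4 at 1.08 and Lama2 at 0.279 CPM per kb were each separate from the next. In nipple-proximal cells the order of the chains was the same and, apart from Lamb2 and Lama5, each chain was separate from its neighbour: Lama3 was at 33.3 ± 0.453 CPM per kb, Lamc1 at 29.8 ± 0.833, Lamb2 at 11.8 ± 2.14, Lama5 at 10.8 ± 2.61, Lamb1 at 3.70 ± 0.601, Lama1 at 2.03 ± 0.680 and Lama4 at 0.696 ± 0.162, with Lama2 near 0.

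**Figure D1:**
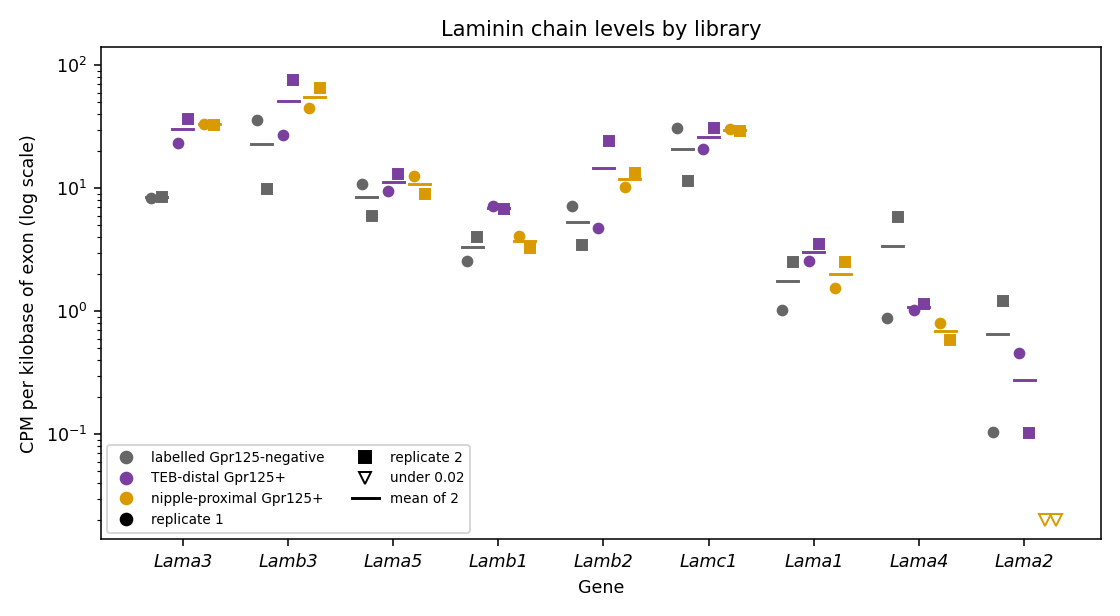
Level of each laminin chain gene (CPM per kilobase of exon, log scale) in each of the 6 libraries, with circles for replicate 1, squares for replicate 2, a bar at the mean of each group and open triangles for values under 0.02. The Gpr125+ points of Lama3 lie between 23.3 and 36.9, apart from 8.35 and 8.56 in the libraries labelled Gpr125-negative, whereas Lama5 and Lamc1 overlap across the groups.

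All Gpr125+ libraries were compared with the libraries labelled Gpr125-negative, then each region separately, to ask whether laminin expression differed with Gpr125 status. The edgeR quasi-likelihood test called none of the 9 chains in any comparison at an adjusted p under 0.1 with a change of at least 2-fold. The share of all 17268 tested genes called was 0% in each comparison as well, while 930 of them had an unadjusted p under 0.05 for all Gpr125+ cells, 1045 for TEB-distal cells, 613 for nipple-proximal cells and 381 between the regions. Of the 9 chains, 7 had a positive and 2 a negative log2 fold change for all Gpr125+ cells against the libraries labelled Gpr125-negative, with a median of 0.50, against -0.026 over all tested genes. Only Lama3 had every Gpr125+ library above both of the libraries labelled Gpr125-negative, which 7.66% of all tested genes did, and no chain had every one below (5% of tested genes). At an unadjusted edgeR p under 0.05, Lama3 was higher (3.05% of tested genes were) and Lama2 and Lama4 lower (2.34%).

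Lama3, the α chain of laminin-332, was at 89.8 and 92.0 CPM in the libraries labelled Gpr125-negative, 250.7 and 396 CPM for TEB-distal cells and 361 and 354 CPM for nipple-proximal cells. Every Gpr125+ library lay above both libraries labelled Gpr125-negative, the lowest of them being TEB-distal replicate 1, while the TEB-distal and nipple-proximal libraries overlapped. The mean was 3.74-fold higher in Gpr125+ cells (log2 fold change 1.90, SE 0.62), which did not pass the test (edgeR adjusted p = 0.882). DESeq2 on the same 6 libraries gave a log2 fold change of 1.80 and called Lama3 (DESeq2 adjusted p = 0.0525), beside 583 genes called in all by that tool. Most basal markers moved with it: 11 of 12 had a positive log2 fold change in the same comparison, with a median of 2.19. Their mean level was 5.79 and 6.38 log2 CPM in the libraries labelled Gpr125-negative, 7.12 and 9.15 for TEB-distal cells and 7.73 and 8.27 for nipple-proximal cells, again with every Gpr125+ library above both others. The marker with a negative change was Trp63, at 58.1 and 8.40 CPM in the libraries labelled Gpr125-negative and 6.47 to 17.6 CPM in Gpr125+ libraries. Krt5 had a log2 fold change of 0.19 (SE 0.82), with overlap. In bulk RNA, fewer cells of a type and less RNA per cell cannot be told apart. The part of the basal cell content in the Lama3 difference was not tested.

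Lamb3, its partner, was at 237 and 65.3 CPM in the libraries labelled Gpr125-negative, 178 and 500.0 CPM for TEB-distal cells and 298 and 429 CPM for nipple-proximal cells. Both nipple-proximal libraries lay above both labelled Gpr125-negative, but TEB-distal replicate 1 lay between them. The fitted difference for all Gpr125+ cells was 1.22 on the log2 scale (SE 0.80, edgeR adjusted p = 1). It was 2.30 without replicate 1 and 0.57 without replicate 2 of the cells labelled Gpr125-negative, and 0.76 without TEB-distal replicate 2. The ratio of Lama3 to Lamb3 per kb ranged from 0.488 to 0.865 in Gpr125+ libraries and was 0.233 and 0.866 in those labelled Gpr125-negative, so the latter lay on either side of every Gpr125+ value. The ratio of Lama3 to Lamc1 per kb was steadier in Gpr125+ cells, 1.11 to 1.19 in all 4 libraries, and lower at 0.272 and 0.752 in those labelled Gpr125-negative.

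Lama5 and Lamc1, chains of the other epithelial laminins, had smaller fitted differences. Lama5 was at 124 and 68.1 CPM in the libraries labelled Gpr125-negative, 109 and 150.0 CPM for TEB-distal cells and 144 and 102 CPM for nipple-proximal cells. All groups overlapped, and its log2 fold change for all Gpr125+ cells was 0.39 (SE 0.58). Lamc1, which encodes the γ1 chain of most trimers outside laminin-332, was at 254 and 94.1 CPM in the libraries labelled Gpr125-negative, against 172 to 256 CPM in the 4 Gpr125+ libraries, with a log2 fold change of 0.40 (SE 0.64). Both Lama5 and Lamc1 were higher in replicate 1 than in replicate 2 of the cells labelled Gpr125-negative. Over the 6 libraries the root mean square difference between their centred log2 CPM, 0.252, was the smallest of any pair of chains.

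Lamb2, the β2 chain that can replace β1, was at 44.0 and 21.0 CPM in the libraries labelled Gpr125-negative, 29.0 and 148 CPM for TEB-distal cells and 62.6 and 81.0 CPM for nipple-proximal cells. The TEB-distal replicates lay on either side of the nipple-proximal libraries, the lower of them between the libraries labelled Gpr125-negative, and the log2 fold change for all Gpr125+ cells was 1.29 (SE 0.79, edgeR adjusted p = 1). Lama1 was at 9.83 and 24.2 CPM in the libraries labelled Gpr125-negative, 24.6 and 33.9 CPM for TEB-distal cells and 15.0 and 24.3 CPM for nipple-proximal cells, with a log2 fold change of 0.50 (SE 0.71). Those groups overlapped, and the lower TEB-distal library exceeded the higher one labelled Gpr125-negative by less than 1 CPM.

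The chains typical of vessels, nerve and muscle had negative log2 fold changes in Gpr125+ cells, which did not pass the test. Lama4 was at 10.7 and 70.8 CPM in the libraries labelled Gpr125-negative, 12.3 and 13.8 CPM for TEB-distal cells and 9.77 and 7.01 CPM for nipple-proximal cells. The high value was that of replicate 2 of the cells labelled Gpr125-negative, while replicate 1 lay within the Gpr125+ range. The log2 fold change for all Gpr125+ cells was -1.96 (SE 0.81, edgeR adjusted p = 0.889), and it was -0.028 without that replicate 2, so 1 library decided it. Without replicate 1 it was -2.89 and was called (edgeR adjusted p = 0.0544).

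Lama2 was at 1.70 and 19.7 CPM in the libraries labelled Gpr125-negative and 7.45 and 1.67 CPM in TEB-distal libraries, whereas the nipple-proximal libraries held 1 count and 0 counts. Both nipple-proximal libraries were below all other libraries. The fitted log2 fold change of nipple-proximal cells against those labelled Gpr125-negative was -8.55 (SE 2.40, edgeR adjusted p = 1), a value that depends on the prior count. By summed counts, 661 against 1, the level in the cells labelled Gpr125-negative was 362 times the nipple-proximal level (95% interval 64.7 to 14303, counting error only). Of those 661 counts, 582 were from replicate 2, and the fitted log2 fold change was -5.89 without that library and -11.35 without nipple-proximal replicate 1. DESeq2 on all 6 libraries called Lama2 in this comparison (log2 fold change -9.01, DESeq2 adjusted p = 0.0037) and for all Gpr125+ cells (-5.16, DESeq2 adjusted p = 0.0226).

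Marker lists of other cells were set beside these chains. All 12 endothelial markers had a negative log2 fold change in Gpr125+ cells, with a median of -4.25 and a summed level of 1394 and 851 CPM in replicates 1 and 2 of the cells labelled Gpr125-negative. In TEB-distal libraries that sum was 20.5 and 21.8 CPM, with Robo4 at 0 in both and Erg at 0 in replicate 2, and in nipple-proximal libraries it was 241 and 27.7 CPM, with Tek at 0 in replicate 2. The fibroblast and pericyte sums, like Lama4 and Lama2, were higher in replicate 2 than in replicate 1 of the cells labelled Gpr125-negative. Members of both lists went either way. For the 10 fibroblast markers the sums were 47.5 and 154 CPM there (Dcn 17.3 and 122 CPM) and 62.0 to 267 CPM in Gpr125+ libraries. Dcn, Lum, Mfap5 and Col1a2 were higher in that replicate 2, whereas Pdgfra, Col1a1, Col3a1, Dpt and Fbln1 were lower, with Fap at 0 throughout. For the 7 pericyte markers the sums were 9.90 and 24.4 CPM in the libraries labelled Gpr125-negative (Rgs5 0 and 18.5 CPM). Rgs5 and Pdgfrb were higher in replicate 2 there, whereas Cspg4, Notch3, Abcc9 and Higd1b were lower. In Gpr125+ libraries the pericyte sums were 1.67 to 22.8 CPM, and 2 to 5 of the markers were at 0 in each of the 6 libraries. The 6 adipocyte markers summed to 688 and 649 CPM in the libraries labelled Gpr125-negative and 13.3 to 52.4 CPM in the others, but Fabp4, which endothelial cells also express, made up 672 and 631 CPM of the former, with Adipoq at 0.0215 CPM and 0 and Plin1 at 0 in both. The 7 leukocyte markers summed to 57.0 to 305 CPM, most of it Cd68 at 43.3 to 290.0 CPM, with Ptprc (CD45) at 1.98 to 9.24 CPM. The 12 luminal markers summed to 1449 to 3077 CPM. The part of these cells in the Lama4 and Lama2 values was not tested.

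**Figure D2:**
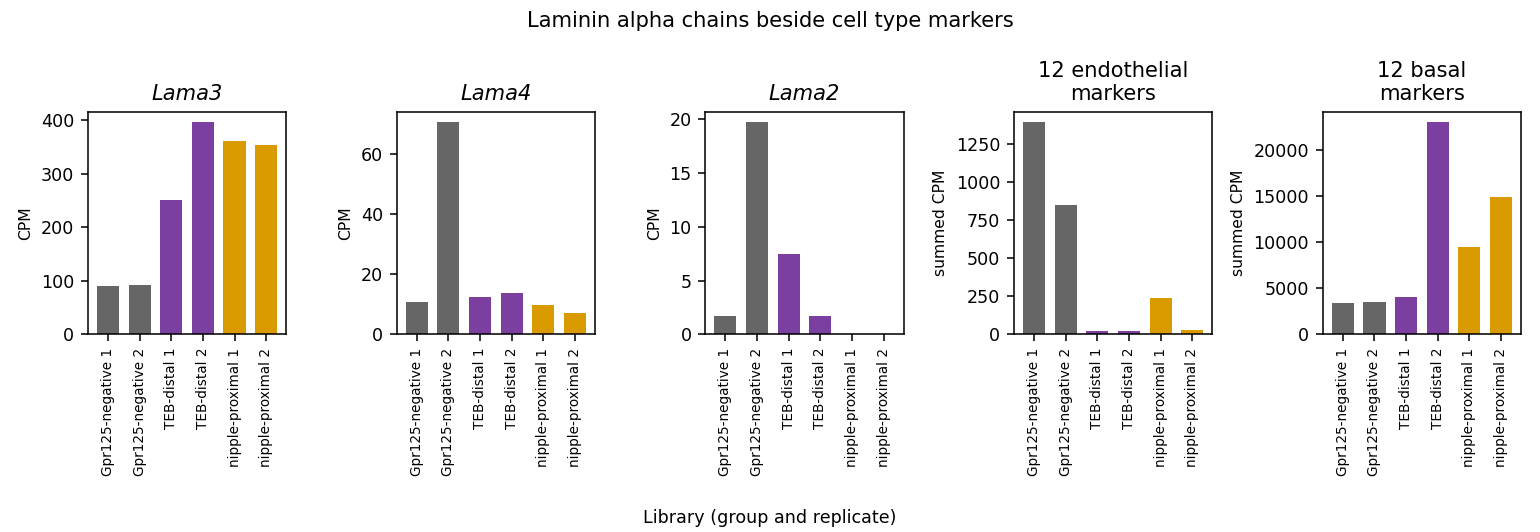
Lama3, Lama4 and Lama2 (CPM, first 3 panels) beside the summed CPM of 12 endothelial and 12 basal markers (last 2 panels) in each library, grey for the libraries labelled Gpr125-negative, purple for TEB-distal and yellow for nipple-proximal Gpr125+ cells. Lama4 reached 70.8 CPM in replicate 2 of the cells labelled Gpr125-negative, where the endothelial sum was 851 CPM, and 10.7 CPM in replicate 1, where it was 1394 CPM.

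Against the libraries labelled Gpr125-negative, TEB-distal cells had 7 chains with a positive and 2 with a negative log2 fold change, with a median of 0.78 (0.027 over all tested genes). Lama1, Lama3 and Lamb1 lay above both libraries labelled Gpr125-negative in either TEB-distal replicate, 3 of 9 chains where 14% of all tested genes did so, and no chain was lower in both (10% of tested genes). Lama3 had a log2 fold change of 1.83 (SE 0.67, edgeR adjusted p = 0.803), and was the 1 chain with an unadjusted edgeR p under 0.05, which 3.8% of tested genes had on the higher and 2.25% on the lower side. Lamb1, the β1 chain of laminin-111, laminin-211, laminin-411 and laminin-511, was at 25.6 and 40.0 CPM in the libraries labelled Gpr125-negative and at 70.8 and 67.1 CPM in TEB-distal libraries. This is a 2.10-fold higher mean (log2 fold change 1.07, SE 0.63, edgeR adjusted p = 0.943). Lamb2 and Lamb3 had larger fitted differences than Lamb1, 1.44 and 1.17 on the log2 scale, but their TEB-distal replicates differed widely and overlapped the libraries labelled Gpr125-negative. Without replicate 2 of the cells labelled Gpr125-negative, the log2 fold changes of Lama2, Lama4 and Lamc1 in this comparison changed sign, to 1.41, 0.29 and -0.25.

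Nipple-proximal cells, compared in the same way, also had 7 positive and 2 negative log2 fold changes, with a median of 0.35 (-0.0032 over all tested genes). Here Lama3, Lamb2 and Lamb3 were higher in both nipple-proximal libraries (19.9% of all tested genes were) and Lama2 and Lama4 lower in both (10.8% of tested genes). Lama3 had a log2 fold change of 1.98 (SE 0.68, edgeR adjusted p = 1). At an unadjusted edgeR p under 0.05, Lama3 was higher (2.62% of tested genes) and Lama2 lower (0.927%). Lamb3 was 2.41-fold and Lamb2 2.21-fold higher in the mean, with log2 fold changes of 1.27 (SE 0.89) and 1.14 (SE 0.87). Lamb1, at 40.9 and 32.5 CPM, lay within the range of the libraries labelled Gpr125-negative or just above it, and its log2 fold change of 0.16 (SE 0.63) turned to -0.018 with DESeq2 size factors. Lama4 had a log2 fold change of -2.28 (SE 1.02, edgeR adjusted p = 1), and -0.34 without replicate 2 of the cells labelled Gpr125-negative.

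Between the Gpr125+ regions, TEB-distal against nipple-proximal, Lama1, Lama2, Lama4 and Lamb1 were higher in both TEB-distal libraries, 4 of 9 chains where 15.2% of all tested genes were, and no chain was lower in both (18.3% of tested genes). The median log2 fold change of the 9 chains was 0.30 (0.059 over all tested genes). For Lama2 the TEB-distal level was 181 times the nipple-proximal one by summed counts, 240 against 1 (95% interval 32.2 to 7191, counting error only), with a fitted log2 fold change of 7.32 (SE 2.30, edgeR adjusted p = 1). It was the 1 chain with an unadjusted edgeR p under 0.05, as were 0.747% of tested genes on the TEB-distal side and 1.46% on the nipple-proximal side. DESeq2 on all 6 libraries called it (log2 fold change 7.69, DESeq2 adjusted p = 0.0396). Fibroblast markers also differed between the regions, with 8 of 9 tested positive, a median log2 fold change of 2.61 and a summed level of 123 and 267 CPM in TEB-distal against 82.3 and 62.0 CPM in nipple-proximal libraries. The study's flow cytometry methods also list an antibody to CD140a (Pdgfra), a fibroblast surface marker, beside those of the excluded cells, and Pdgfra itself was at 6.75 and 4.12 CPM for TEB-distal cells and 0.0491 and 0.800 CPM for nipple-proximal cells. The part of fibroblasts in the Lama2 difference was not tested.

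Lamb1 was 1.88-fold higher in TEB-distal than in nipple-proximal cells in the mean (log2 fold change 0.91, SE 0.63, edgeR adjusted p = 1), and both TEB-distal values were above every other library. Lama4, at a log2 fold change of 0.64 (SE 0.98), and Lama1, at 0.58 (SE 0.80), were higher in both TEB-distal libraries by small margins. The laminin-332 chains did not separate the regions: Lama3 had a log2 fold change of -0.14 (SE 0.65) and Lamb3 of -0.10 (SE 0.87), in each case with a TEB-distal replicate on either side of the nipple-proximal libraries. The difference of Lamb3 was 0.029 with DESeq2 size factors. The estimates for Lama5 and Lamc1 were 0.08 (SE 0.66) and -0.20 (SE 0.73).

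**Figure D3:**
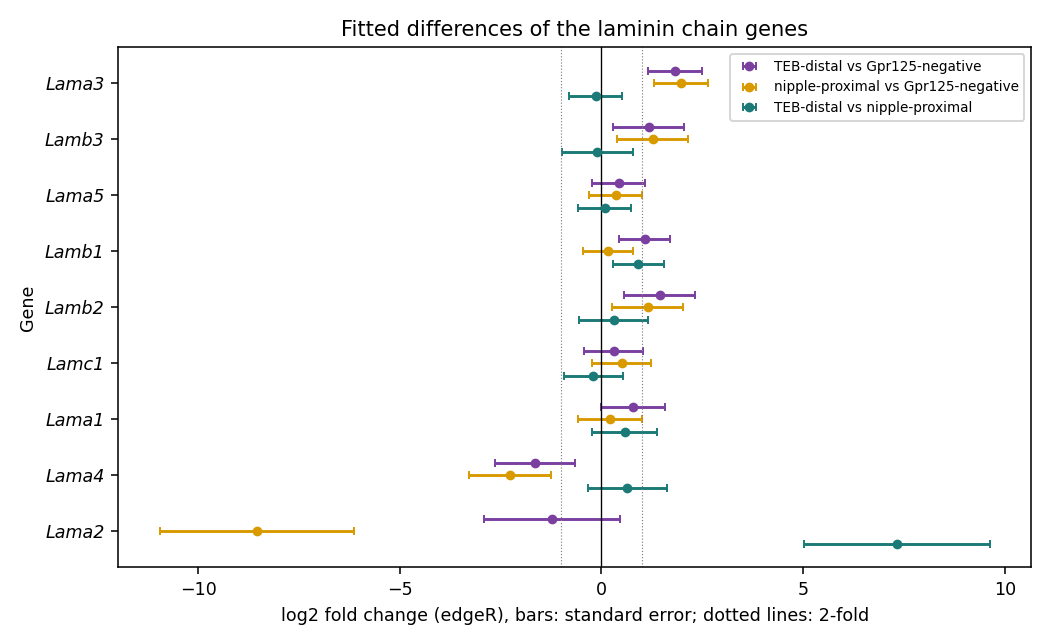
Fitted log2 fold changes (edgeR, points) with their standard errors (bars) for the 9 laminin chain genes in 3 comparisons, with dotted lines at a 2-fold change. Lama3 lies at 1.83 and 1.98 in the comparisons with the libraries labelled Gpr125-negative and at -0.14 between the regions, and Lama2 at -8.55 and 7.32 in the comparisons with nipple-proximal cells.

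The make-up of the α chains was computed in each library as the share of each gene in the summed CPM per kb of the 5 α genes, a measure that does not depend on the scaling between libraries. Lama3 made up 39.3% and 35.5% of α chain transcripts in the libraries labelled Gpr125-negative, 63.2% and 67.3% for TEB-distal cells and 69.2% and 73.3% for nipple-proximal cells. Every Gpr125+ library was above both of the others, and the means were 37.4 ± 2.69% (n = 2) and 68.2 ± 4.17% (n = 4), a difference of 30.8 percentage points. An exact two-sided permutation test gave p = 0.133, the smallest that 4 against 2 libraries allow (0.667 adjusted over the 16 share comparisons), so the design cannot reach 0.05. The difference was 34.4 points with coding lengths and 31.6 points with no length scaling, and 28.9 to 32.7 points with any library left out.

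The rest of the α chain transcripts was divided differently in the 2 libraries labelled Gpr125-negative. In replicate 1 Lama5 held 51.3% of α chain transcripts and Lama4 4.16%, whereas in replicate 2 Lama5 held 24.8%, Lama4 24.3%, Lama1 10.4% and Lama2 5.00%. The share of Lama5 in Gpr125+ libraries, 19.9% to 26.0%, overlapped that of replicate 2 (exact permutation p = 0.4 for all Gpr125+ libraries against both). Lama4 held 1.29% to 2.77% in Gpr125+ libraries, below both libraries labelled Gpr125-negative (exact permutation p = 0.133, again the smallest possible). Lama1 ranged from 3.19% to 6.90% in Gpr125+ libraries and Lama2 from 0% to 1.24%.

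Among the 3 β chains Lamb3 was the main one in every library, at 78.5% and 56.9% of β chain transcripts per kb in the libraries labelled Gpr125-negative, 69.4% and 70.9% for TEB-distal cells and 75.8% and 79.6% for nipple-proximal cells. The groups labelled Gpr125-negative and Gpr125+ overlapped in this share, in contrast to that of Lama3. Lamb1 held 5.65% and 23.2% in the libraries labelled Gpr125-negative, 18.4% and 6.34% for TEB-distal cells and 6.93% and 4.02% for nipple-proximal cells, and Lamb2 12.3% to 22.8% in all 6. Between the regions, the share of Lama3 was lower in both TEB-distal libraries by a mean of 5.96 points and that of Lamb3 by 7.58 points, with an exact permutation p of 0.333, the smallest that 2 against 2 libraries allow. Summed over all 9 chains, the level was 97.6 and 52.9 CPM per kb in the libraries labelled Gpr125-negative, 96.6 and 192 for TEB-distal cells and 139 and 156 for nipple-proximal cells.

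**Figure D4:**
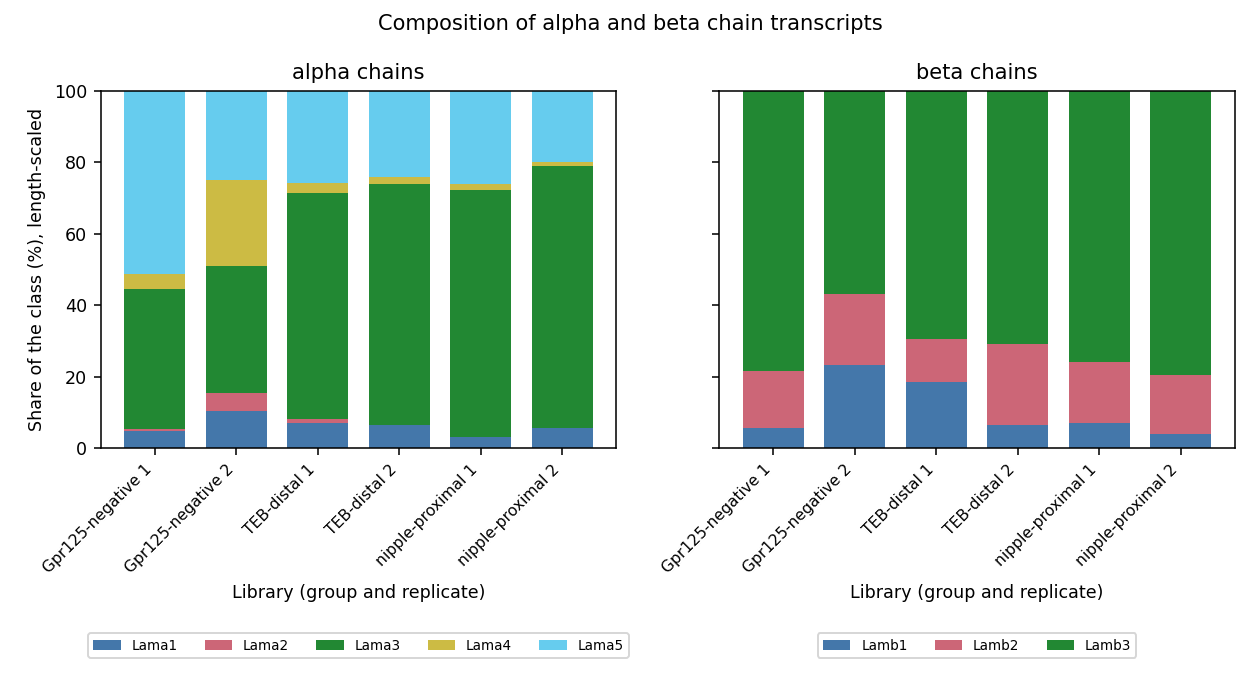
Share of each gene (%) in the summed length-scaled level of the α chain genes (left) and β chain genes (right), one stacked bar per library. The Lama3 segment covers 35.5% and 39.3% in the libraries labelled Gpr125-negative and 63.2% to 73.3% in the Gpr125+ libraries, while Lamb3 covers the most of the β chains in all 6.

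The receptors that bind these laminins were read in the same fits. Of 8 receptor genes, none was called, 6 had a positive log2 fold change for all Gpr125+ cells and the median was 0.55. Over all tested genes, 48.7% were positive and the median was -0.026. Itga7 encodes the integrin α7 that binds laminin in muscle and myoepithelial cells. It was at 4.45 and 4.84 CPM in the libraries labelled Gpr125-negative and 8.14 to 37.8 CPM in Gpr125+ libraries, without overlap. Of all tested genes, 7.66% were higher without overlap in this way. The log2 fold change of Itga7 was 2.01 (SE 0.85, edgeR adjusted p = 0.889). Itga6, whose protein the sort selected in every group, was at 62.7 and 87.0 CPM in the libraries labelled Gpr125-negative and 87.7 to 191 CPM in Gpr125+ libraries (log2 fold change 0.72, SE 0.60). Itgb4, its partner in hemidesmosomes, was at 267 and 46.9 CPM in the libraries labelled Gpr125-negative, 88.1 and 288 CPM for TEB-distal cells and 263 and 339 CPM for nipple-proximal cells, with a log2 fold change of 0.60 (SE 0.86). Its low libraries were those in which Lamb3 was low. Dag1, which encodes dystroglycan, was at 57.3 and 81.8 CPM in TEB-distal libraries, below both of 86.1 and 88.2 CPM labelled Gpr125-negative. In nipple-proximal libraries it was at 126 and 137 CPM, above both, so the regions did not overlap (log2 fold change -0.92, SE 0.62, edgeR adjusted p = 1). Between the regions, 18.3% of all tested genes were lower in both TEB-distal libraries.

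Among 12 other basement membrane genes, 11 could be tested, and none was called. All 11 had a positive log2 fold change for all Gpr125+ cells, with a median of 1.42, but the sign of Col15a1 was fixed in advance. Over all tested genes, 48.7% were positive and the median was -0.026. Col4a1, a chain of the type IV collagen network to which laminin is linked, was at 223 and 156 CPM in the libraries labelled Gpr125-negative, 825 and 1892 CPM for TEB-distal cells and 562 and 417 CPM for nipple-proximal cells. No group overlapped another. Every Gpr125+ library was above both labelled Gpr125-negative, as for 7.66% of all tested genes. Both TEB-distal libraries were above both nipple-proximal ones, as for 15.2%. The log2 fold change of Col4a1 for all Gpr125+ cells was 2.11 (SE 0.73, edgeR adjusted p = 0.882). Col15a1 had the largest fitted change, 7.54 (SE 3.20), on few reads: it was at 0 in both libraries labelled Gpr125-negative and in TEB-distal replicate 1, and at 0.330 to 2.36 CPM in the other 3. It passed the filter on low counts through Gpr125+ libraries only, so its change could not have been negative. Nid1, which encodes the nidogen that bridges laminin γ1 and collagen IV, was at 166 CPM in TEB-distal replicate 1 and 23.9 to 46.5 CPM in the other 5 libraries, with a log2 fold change of 0.54 (SE 0.76). Hspg2, the heparan sulphate proteoglycan perlecan, was at 163 CPM in TEB-distal replicate 2 and 23.1 to 72.3 CPM elsewhere (log2 fold change 1.11, SE 0.87). The 4 hemidesmosome and anchoring genes all had a positive log2 fold change, with a median of 0.61, and none was called.

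**Figure D5:**
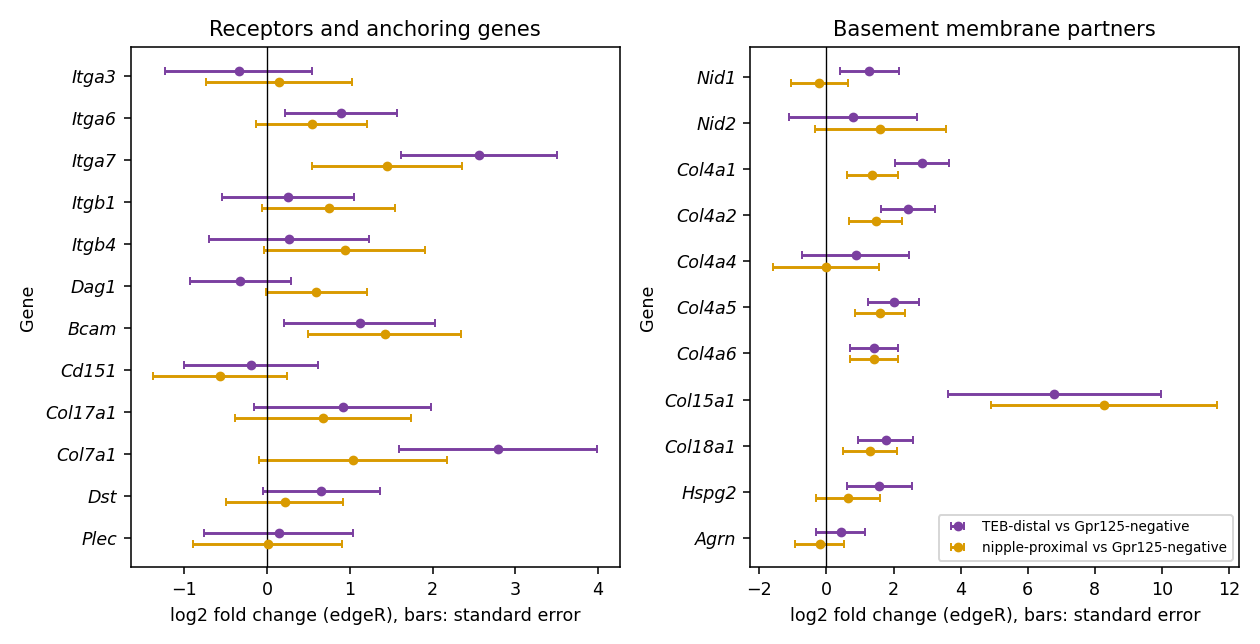
Fitted log2 fold changes (edgeR, points) with standard errors (bars) of laminin receptors and hemidesmosome or anchoring genes (left) and of basement membrane partners (right), for TEB-distal (purple) and nipple-proximal (yellow) Gpr125+ cells against the libraries labelled Gpr125-negative. Col4a1 lies at 2.84 and 1.37, Itga7 at 2.56 and 1.45, and Col15a1, which rests on few reads, at 6.79 and 8.28.

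The genes whose pattern over the 6 libraries was nearest to that of a chain were found by the root mean square difference of centred log2 CPM. For Lama3 they were Gm5138, Gm5864 and 2700081O15Rik, at 0.243, 0.268 and 0.278. For Lama4 they were D530018E20Rik, Ccl6 and Bhlhe41, at 0.241, 0.242 and 0.304, and for Lama5 Sh3bp2, Abhd5 and Atp6v0e, at 0.0833, 0.0916 and 0.106. Within the family, after Lama5 and Lamc1, the nearest by this measure were Lamb2 and Lamb3, at 0.362, and Lama1 and Lamb1, at 0.406. Lama3 was further from its nearest gene than Lama5 was, but it also varied more over the libraries. The SD of its log2 CPM was 0.912, against 0.379 for Lama5, and the root mean square difference grows with that spread. No gene of the lists above was among those named here.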

How the data were processed

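The deposited files hold raw read counts per gene, 1 table per library, not normalized. According to the study's methods and the submitters' processing notes the authors aligned reads to mm10 with STAR (2.7.3 in the notes, another release in the methods) and counted them without strand using HTSeq. The annotation release is not given in the sources used here. SMART-Seq HT libraries carry no molecular identifiers. Counts were analysed here with edgeR 4.0.16 in R 4.3.3: TMM, filterByExpr by group, glmQLFit (robust) and glmQLFTest on all 6 libraries, with Benjamini-Hochberg adjustment over 17268 genes. Genes were called where the adjusted p was under 0.1 and the fold at least 2. CPM are TMM-normalized. Levels per kb use the union of exons in GENCODE M21 (GRCm38). Shares were compared with exact permutation tests (scipy 1.17.1). DESeq2 1.42.0, other filters and scaling, a replicate block and leaving out each library were the alternatives. All 9 chains are reported, and of the receptor, basement membrane and hemidesmosome lists the 3 genes with the largest change for all Gpr125+ cells, plus Itga6, Itgb4, Dag1, Nid1, Col4a1 and Hspg2. The members and lists were chosen with earlier results of these data known. Test scripts were tested on simulated data.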

Additional observations from a re-analysis of the deposited data

How the results depend on the processing

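The main test called no chain and no gene in any comparison. Whether replicate numbers pair the libraries cannot be settled with 2 libraries a group. Deviations of same-numbered libraries from their group means correlated at -0.035 (Gpr125-negative with TEB-distal), 0.19 (Gpr125-negative with nipple-proximal) and -0.0049 (TEB-distal with nipple-proximal). The replicate block called 0 genes in all 4 comparisons. So did DESeq2 size factors, no robust estimation, 10 counts in 2 libraries, edgeR on the compared libraries and an adjusted p under 0.05. In the order TEB-distal, nipple-proximal and all Gpr125+ against Gpr125-negative, then TEB-distal against nipple-proximal, DESeq2 on all 6 libraries called 635, 205, 583 and 101 genes, of which 0, 1, 2 and 1 were chains. A filter of at least 1 count called 137, 58, 244 and 39 genes and 0 chains. DESeq2 on the compared libraries called 313, 166 and 242 genes (the contrast of all Gpr125+ not being run), and 667, 302 and 355 when every gene with a count was kept, an alternative chosen after seeing the data. Both called 1 chain, Lama2, in each comparison with nipple-proximal cells. Leaving out each library gave 0 to 747, 0 to 335, 0 to 993 and 0 to 12 called genes and 0, 0 to 1, 0 to 2 and 0 chains. The highest counts of the first 3 came without Gpr125-negative replicate 1, when Lama2 (adjusted p 0.0721 for nipple-proximal and 0.0448 for all Gpr125+ cells, edgeR) and Lama4 (all Gpr125+, 0.0544) were called, and 12 without nipple-proximal replicate 2. A lone library is then assumed to vary like the other groups. Lama3 stayed positive against Gpr125-negative cells in every alternative (1.46 to 2.11). With a library left out, the log2 fold changes of all Gpr125+ cells that kept their sign ranged from 0.57 to 2.30 (Lamb3), 0.49 to 1.80 (Lamb2), 0.20 to 0.97 (Lamb1), 0.021 to 0.76 (Lama5), -2.89 to -0.028 (Lama4) and -6.29 to -2.24 (Lama2), and Lama2 ranged from -11.35 to -5.89 for nipple-proximal cells and from 5.93 to 10.12 between the regions. Uncalled log2 fold changes that changed sign with a library left out ranged, for TEB-distal against Gpr125-negative, from -2.72 to 1.41 (Lama2), -2.57 to 0.29 (Lama4), -0.25 to 1.06 (Lamc1) and -0.17 to 2.19 (Lamb2). Those for nipple-proximal cells ranged from -0.44 to 1.00 (Lama1), -0.26 to 0.53 (Lamb1, also -0.018 by DESeq2 on all 6 libraries and by its size factors), -0.012 to 0.71 (Lama5) and -0.039 to 1.25 (Lamc1), and those for all Gpr125+ cells from -0.15 to 1.28 (Lama1) and -0.15 to 1.16 (Lamc1). Between the regions they ranged from -0.53 to 0.21 (Lama3), -1.05 to 0.53 (Lamb3, also 0.029 by DESeq2 on all 6 libraries and by its size factors), -0.53 to 0.12 (Lamc1), -0.19 to 0.35 (Lama5) and -1.33 to 1.11 (Lamb2). Share differences of all Gpr125+ cells that changed sign, an analysis added after seeing the data, ranged from -4.85 to 0.736 points (Lama1), -14.3 to 3.26 (Lamb1), -2.72 to 1.33 (Lamb2) and -4.59 to 17.0 (Lamb3), and between the regions from -1.02 to 5.10 (Lama5) and -4.56 to 5.95 (Lamb2). The cause was not tested.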
